A study of Mus musculus with 12 samples.

Results

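The genes of cholesterol synthesis, uptake and esterification comprise the enzymes that build the sterol, a receptor and a receptor ligase of lipoprotein uptake, carriers that move sterol inside the cell, and the enzymes that store it as esters. They were chosen by name, and 28 of 28 were found, each as 1 of the 55385 features of the liver table: 8 of the mevalonate and isoprenoid steps, 12 of the squalene and sterol steps, 2 of uptake, 4 of intracellular transport and 2 of esterification. All 28 had a mean of at least 1 TPM (transcripts per length, scaled to a fixed sum) over the 12 mice and so were among the 16378 genes tested, with the lowest mean at 6.72 TPM (Soat1).

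Liver RNA was sequenced from 12 male C57BL/6 mice aged 7 weeks, 4 in each of 3 groups, in a rescue experiment that asked whether the human lncRNA hGULL can stand in for the mouse lncRNA mGULL. Every mouse, controls included, received 500000000 pfu of adenovirus and was killed on day 7, so no group is free of virus. Ad-Ctrl mice received a Lac virus with the empty pAdV5 virus, Ad-shmGULL mice a virus carrying an shRNA against mGULL with the empty virus, and Ad-shmGULL+hGULL mice the shRNA virus with one expressing hGULL. Differences are written as knockdown minus control, as rescue minus knockdown or as rescue minus control, and any pair of these shares a group of mice. The sources name 2 routes of injection, the levels of mGULL and hGULL were not analysed here, and the values are whole liver values, in which fewer cells of a type and less RNA per cell cannot be told apart. Because TPM sum to the same total in every mouse, the sequencing depth is unknown.

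As background, the liver makes cholesterol from acetyl-CoA through mevalonate, isoprenoids and squalene, and takes it up from lipoproteins. When sterol in the endoplasmic reticulum is low, the factor SREBP-2 is carried by Scap to the Golgi, cleaved and sent to the nucleus, where it raises transcription of most genes of this route, while the Insig proteins hold it back when sterol is plentiful. Excess cholesterol is esterified by the Soat enzymes or leaves as bile acids and lipoproteins.

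Levels per transcript length differed widely between the genes. Sc5d (185 TPM over the 12 mice), Hmgcs1 (152), Ebp (132) and Tmem97 (117) had the highest means, and Fdps (10.7), Ggps1 (9.901) and Soat1 (6.72) the lowest. Neighbors in this order overlapped: Sc5d ranged from 138 to 251 TPM and Hmgcs1 from 70.6 to 259. Of the esterifying enzymes, Soat2, the form of hepatocytes and intestine, stood at 56.5 TPM, above the highest Soat1 value (8.84 TPM) in every mouse.

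After mGULL knockdown, 5 of the 28 genes were higher at the threshold the study used, which asks for more than 0.5 on the log2 scale and for P under 0.05 before adjustment, and 0 were lower. The 5 were Acat2, Hmgcs1, Mvd, Lss and Nsdhl, all enzymes of synthesis, and over all tested genes 5.35% were higher and 2.3% lower. At an adjusted p under 0.05 the count was 1 (Acat2), against 3.23% of all genes, and only Acat2 had all 4 knockdown mice above all 4 controls, a pattern that 6.93% of all genes showed. Fold changes are on the log2(TPM + 1) scale, which understates the change of low genes. Their median over the 28 was 0.21, against 0.087 over all genes, and 23 of 28 were above 0, against 65.5% of all genes (22 of 28 with either other scaling). With median-of-ratios scaling the median was 0.11 over the 28 and -0.00305 over all genes, and 3 of the 28 were higher (Acat2, Hmgcs1 and Mvd) against 3.82% of all genes, and the split of called genes moved from 876 higher and 377 lower to 625 and 548.

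Adding hGULL to the knockdown moved 0 of the 28 genes past the study threshold in either direction, where 2.33% of all genes were higher and 0.672% lower. In limma, 0 of the 28 and 0% of all genes had an adjusted p under 0.05, and at an unadjusted P under 0.05 the counts were 2 of 28 (Scarb1 and Soat2) and 1757 of 16378. In knockdown minus control the unadjusted count was 10 of 28, against 20.2% of all genes. In rescue minus control it was 8 of 28, against 25.3%. All 4 rescue mice lay above all 4 knockdown mice for 1 gene (Soat2) and for 5.4% of all genes. The median log2 fold change was -0.018 over the 28 and 0.093 over all genes, with 13 of 28 above 0 as deposited, against 70.9% of all genes, and 8 of 28 with either other scaling. With median-of-ratios scaling the medians were -0.11 and 0.00711. By role, the medians were -0.21 for the mevalonate and isoprenoid steps (6 of 8 below 0), -0.04 for the squalene and sterol steps (6 of 12), -0.00181 for uptake (1 of 2), 0.051 for transport (2 of 4) and 0.15 for esterification (0 of 2). Over all genes the split was 382 higher and 110 lower as deposited and 245 and 166 with median-of-ratios scaling. A miss of the threshold does not show that the levels were alike, and the 95% intervals of single genes were wide, for Hmgcs1 -0.82 to 0.32. With Ad-shmGULL mouse 1 or Ad-shmGULL mouse 4 left out, 1 gene (Mvd, -0.52) or 2 genes (Pmvk, -0.64, and Fdps, -0.52) were lower at the study threshold, against 0.666% and 0.843% of all genes.

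Against control, the rescue livers had 2 of 28 genes higher at the study threshold (Hmgcs1 and Lbr) and 0 lower, against 6.84% and 0.641% of all genes, and 1 with an adjusted p under 0.05 (Soat2), against 2.15%. In this comparison all genes were shifted, with a median log2 fold change of 0.17 that became -0.003 with median-of-ratios scaling. The median of the 28 was 0.19, or 0.017 relative to that of all genes, and 0.00927 with median-of-ratios scaling. All 4 rescue mice lay above all 4 controls for 8 of 28 genes (Acat2, Fdft1, Lss, Lbr, Sc5d, Tmem97, Npc1 and Soat2), where 21.4% of all genes did the same. Log2 fold changes were above 0 for 24 of 28 genes as deposited, against 81.9% of all genes, and for 14 of 28 with median-of-ratios scaling, which left 0 of 28 past either threshold and moved the split of all called genes from 1121 higher and 105 lower to 486 and 237. At an adjusted p under 0.05 the count was 7 of 28 with only the 2 groups compared and 9 of 28 with array weights, where the share of all genes was 10.3% and 19.4%, and it was 0 with either other scaling, against 0.0672% of all genes. The counts also turned on single mice: the number at the study threshold was 4 without Ad-Ctrl mouse 1 (9.6% of all genes higher), 0 without Ad-Ctrl mouse 2 (4.76%), 1 without rescue mouse 1 or rescue mouse 2 (5.6% and 5.52%) and 3 without rescue mouse 3 or rescue mouse 4 (7.8% and 7.47%).

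**Figure D1:**
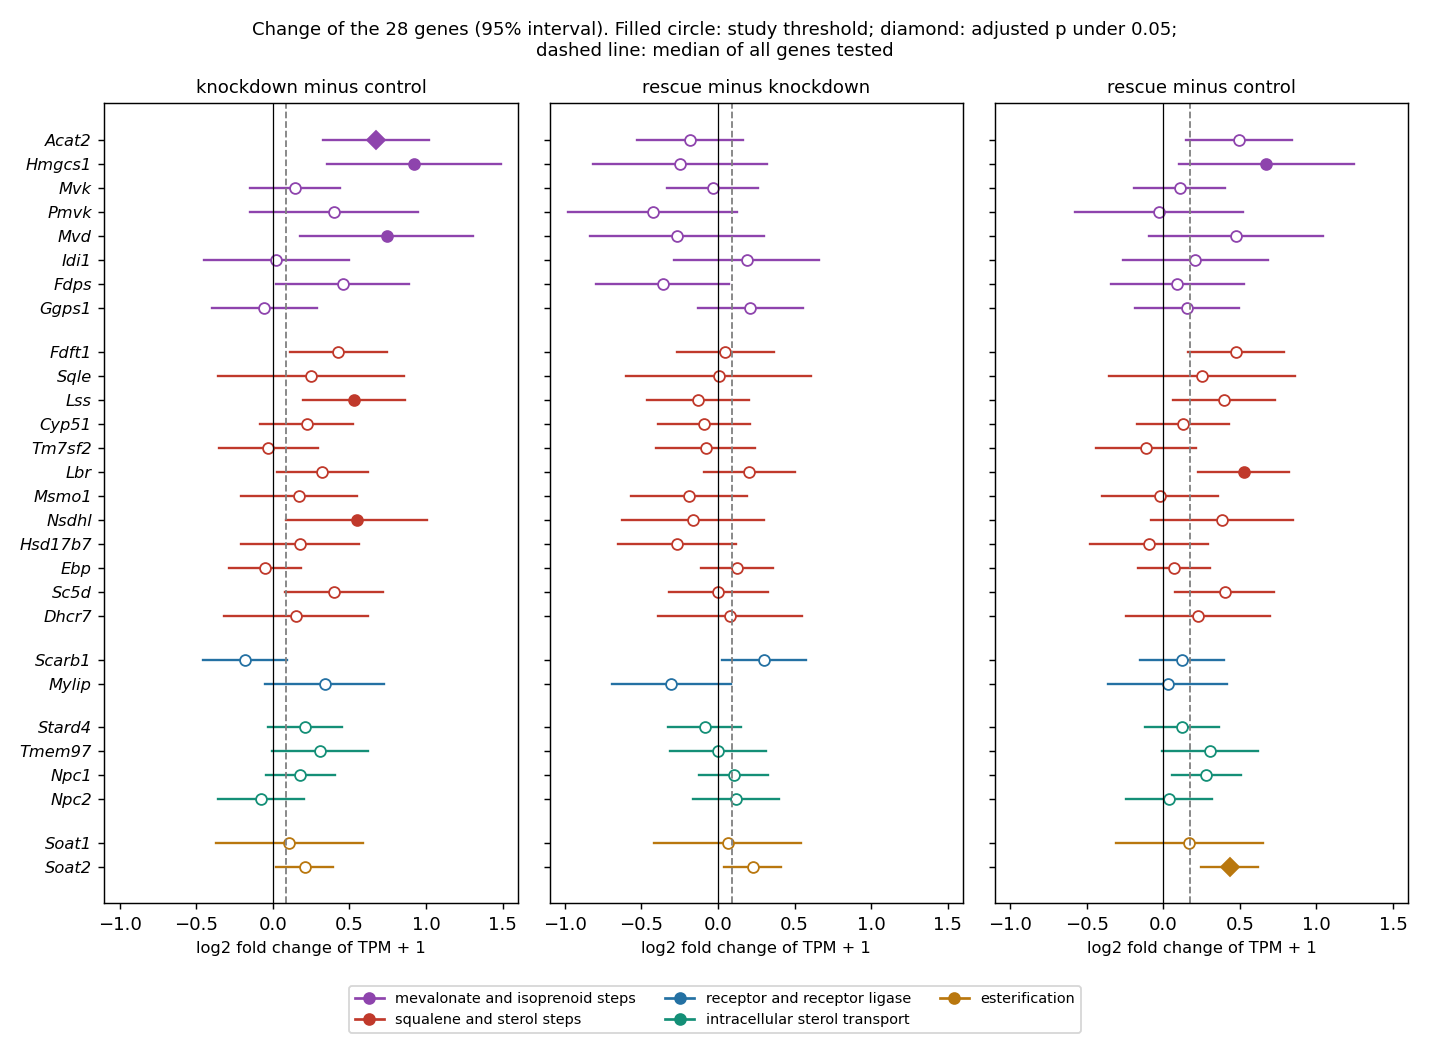
Log2 fold changes of log2(TPM + 1) for the 28 genes in the 3 comparisons, ordered and colored by role, with 95% confidence intervals from limma (4 mice a group). Filled circles passed the study threshold, diamonds had an adjusted p under 0.05, and the dashed line is the median of all 16378 genes; the 5 filled symbols of knockdown minus control are all enzymes of synthesis.

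The mevalonate and isoprenoid steps held 3 of the 5 genes that rose with knockdown at the study threshold, where 5.35% of all genes were higher. Acat2 (ENSMUSG00000023832.14; chr17:12943042-12960725 in the RefSeq annotation of GRCm38.p6), the cytosolic thiolase that joins acetyl-CoA units, stood at 31.5, 22.4, 27.4 and 26.3 TPM in Ad-Ctrl mice 1 to 4, 35.1, 49.95, 54.9 and 36.01 in Ad-shmGULL and 41.03, 45.1, 34.9 and 32.1 in Ad-shmGULL+hGULL. Each knockdown mouse was above each control, and so was each rescue mouse. The mean was 43.99 ± 9.94 TPM (SD, n = 4) in Ad-shmGULL against 26.9 ± 3.74 in Ad-Ctrl, a log2 fold change of 0.67 (SE 0.16; limma, adjusted p = 0.0422; higher in 4 of 4 mice). The exact two-sided permutation p over 4 mice against 4 was 0.0286, the smallest that this design allows. The study threshold was passed in 9 of 9 alternatives and with each of the 12 mice left out in turn. The adjusted p was under 0.05 in 4 of the 9 (a pseudocount of 0.1, a filter at 5 TPM and both scalings) and from 0.0563 to 0.114 in the other 5 (no filter, 2 groups alone, no trend, array weights and a replicate block). It was under 0.05 with 3 of 12 mice left out, from 0.0294 to 0.121. In rescue minus control its log2 fold change was 0.49, 0.32 above the all-gene median (adjusted p = 0.0967), and it passed the study threshold there without Ad-Ctrl mouse 1 (0.57) or 3 (0.51) and without rescue mouse 3 (0.53) or 4 (0.57). It also did so with a pseudocount of 0.1 (0.51) and with array weights (0.504, adjusted p = 0.0221). Its neighbor and close relative Acat3, named after its values were seen, stood at 115 ± 14.5, 105 ± 18.8 and 113 ± 11.5 TPM (SD, n = 4) in the 3 groups, with a knockdown log2 fold change of -0.13 (adjusted p = 0.6000). How reads that match both copies were assigned is not given in the sources used here.

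Hmgcs1 (ENSMUSG00000093930.2; chr13:119690351-119708260), the cytosolic synthase that makes HMG-CoA, stood at 155, 70.6, 84.6 and 100.1 TPM in Ad-Ctrl mice 1 to 4, 134, 259, 229 and 153 in Ad-shmGULL and 217, 164, 129 and 132 in Ad-shmGULL+hGULL. Ad-shmGULL mice 2 and 3 were the highest of the 12, and Ad-shmGULL mice 1 and 4 lay below Ad-Ctrl mouse 1, so the groups overlapped. Its log2 fold change, 0.92 (SE 0.26; unadjusted P = 0.00413, adjusted p = 0.0745), was the largest of the 28 in knockdown minus control. Against control, the rescue value was 0.67 (unadjusted P = 0.0245, adjusted p = 0.144), 0.50 above the all-gene median. With knockdown the adjusted p was 0.0252 without Ad-Ctrl mouse 1 (log2 fold change 1.14) and lay up to 0.198 with other mice left out. The rescue call was lost with median-of-ratios scaling (0.47) and, by its unadjusted P, without Ad-Ctrl mouse 2 (0.0807), Ad-Ctrl mouse 3 (0.0618) or rescue mouse 1 (0.08105). The exact two-sided permutation p was 0.0857 for knockdown against control over 4 mice against 4.

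Mvd (ENSMUSG00000006517.5; chr8:122433596-122443422), which decarboxylates mevalonate diphosphate to isopentenyl diphosphate, stood at 11.1, 7.21, 6.67 and 10.3 TPM in Ad-Ctrl mice 1 to 4, 8.54, 19.97, 23.2 and 12.9 in Ad-shmGULL and 14.7, 12.4, 9.72 and 13.3 in Ad-shmGULL+hGULL. Ad-shmGULL mice 2 and 3 were again the highest, and Ad-shmGULL mouse 1 lay among the controls. The knockdown log2 fold change was 0.74 (SE 0.26; unadjusted P = 0.0144, adjusted p = 0.133) and lost the study threshold without Ad-shmGULL mouse 3 (0.55, unadjusted P = 0.0525). Without Ad-shmGULL mouse 1 it was 0.99 (adjusted p = 0.0392). Idi1, which converts isopentenyl to dimethylallyl diphosphate, was also higher in Ad-shmGULL mice 2 and 3 than in mice 1 and 4, but was not called. It stood at 22.2, 13.9, 13.8 and 15.2 TPM in Ad-Ctrl mice 1 to 4, 11.7, 20.1, 24.2 and 12.1 in Ad-shmGULL and 21.6, 19.7, 16.4 and 17.3 in Ad-shmGULL+hGULL. Here Ad-shmGULL mice 1 and 4 were the lowest of the 12, and the log2 fold change was 0.023 (95% interval -0.45 to 0.50), and -0.075 with median-of-ratios scaling.

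With all 12 mice, the other 4 genes of these steps did not pass either threshold in any comparison. Mvk, mevalonate kinase, ranged from 12.3 to 19.8 TPM over the 12 mice, and Ggps1, which makes geranylgeranyl diphosphate, from 6.36 to 12.8. Fdps, which makes farnesyl diphosphate, had a knockdown log2 fold change of 0.46 (adjusted p = 0.224), and Pmvk, phosphomevalonate kinase, one of 0.40 (adjusted p = 0.411). For Pmvk the knockdown mean rested on Ad-shmGULL mouse 3, at 61.3 TPM against 22.7 to 38.01 in the other 3 mice. The study threshold was passed by Fdps without Ad-shmGULL mouse 1 (0.53), and by Fdps and Pmvk without Ad-shmGULL mouse 4 (0.61 and 0.61) or Ad-Ctrl mouse 1 (0.59 and 0.58). Without Ad-shmGULL mouse 3 the Pmvk value was 0.15.

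**Figure D2:**
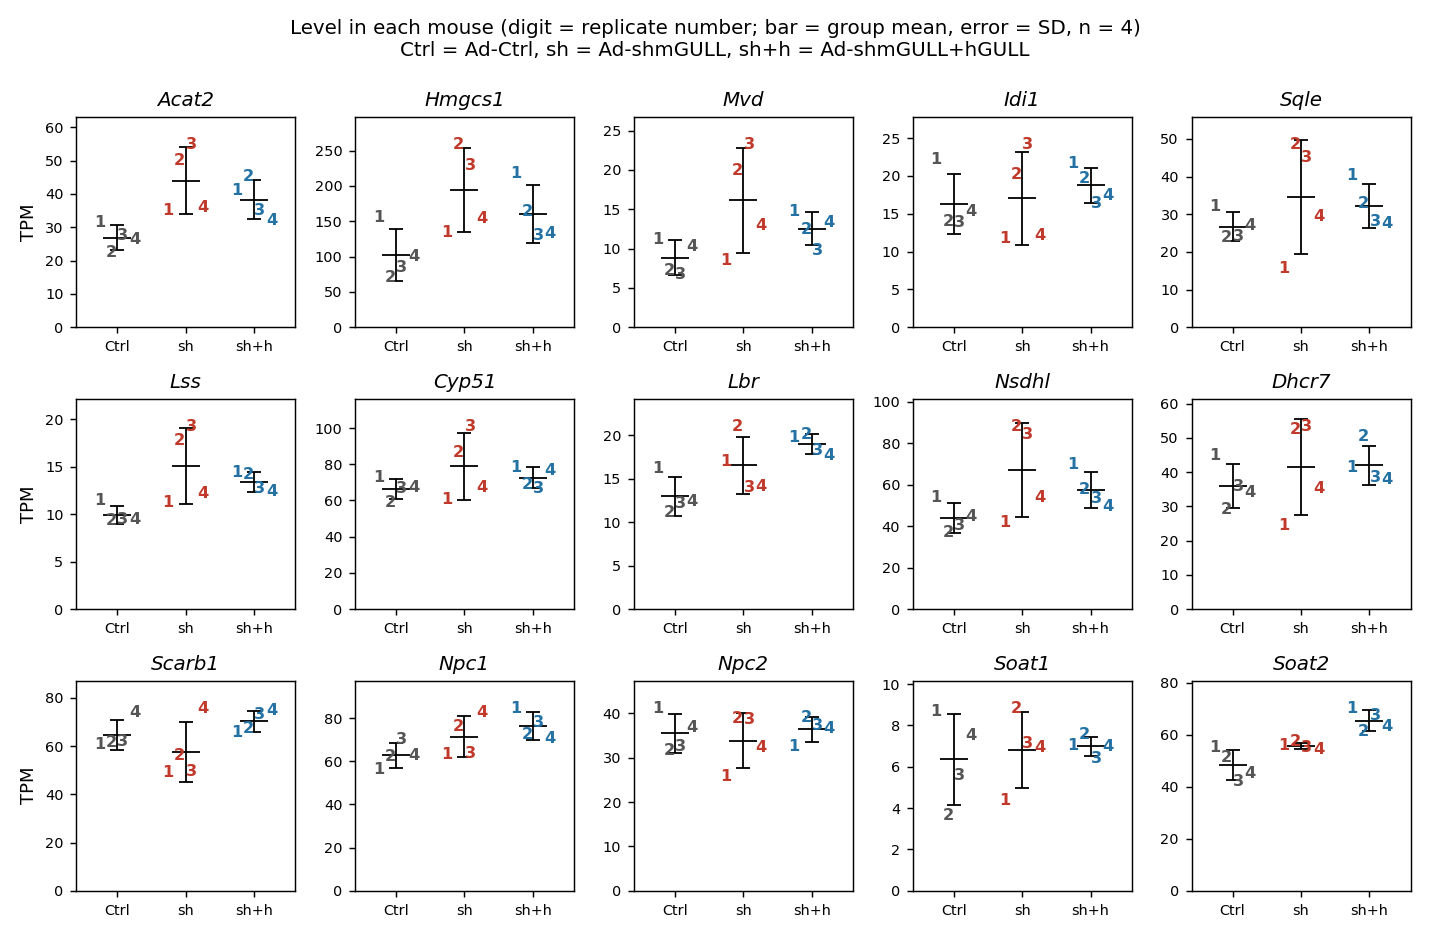
TPM (linear axis from 0) of 15 genes in each of the 12 mice; digits are replicate numbers, horizontal bars the group means and error bars the SD (4 mice a group). In Hmgcs1, Mvd, Sqle, Lss, Nsdhl and Dhcr7, Ad-shmGULL mice 2 and 3 stand above the other knockdown mice, while Soat2 is highest in the 4 rescue mice.

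Among the 12 squalene and sterol genes, 2 rose with knockdown at the study threshold and 0 fell, against 5.35% and 2.3% of all genes. Lss (ENSMUSG00000033105.12; chr10:76531565-76557139), which closes squalene epoxide to lanosterol, stood at 11.4, 9.36, 9.45 and 9.45 TPM in Ad-Ctrl mice 1 to 4, 11.2, 17.8, 19.3 and 12.1 in Ad-shmGULL and 14.4, 14.1, 12.7 and 12.4 in Ad-shmGULL+hGULL. Only Ad-shmGULL mouse 1 overlapped the controls, and each rescue mouse was above each control. The knockdown log2 fold change was 0.53 (SE 0.15; unadjusted P = 0.00451, adjusted p = 0.0776), and it was 0.43 with median-of-ratios scaling, 0.44 without Ad-shmGULL mouse 2 and 0.41 without mouse 3, each below the threshold of 0.5. Quantile normalization gave 0.45, also below it, and without Ad-shmGULL mouse 1 the value was 0.65 (adjusted p = 0.0381). The rescue values gave 0.40 against control, or 0.23 relative to all genes (adjusted p = 0.1398).

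Nsdhl (ENSMUSG00000031349.4; chrX:72918521-72958528), a dehydrogenase that takes part in removing the C4 methyl groups, stood at 53.9, 36.99, 40.5 and 44.4 TPM in Ad-Ctrl mice 1 to 4, 41.9, 88.2, 84.2 and 53.8 in Ad-shmGULL and 69.6, 57.6, 53.5 and 49.3 in Ad-shmGULL+hGULL. Ad-shmGULL mice 2 and 3 stood far above the rest, and mice 1 and 4 lay within the control range. Its log2 fold change was 0.55 (SE 0.21; unadjusted P = 0.0242, adjusted p = 0.172). It was 0.45 with median-of-ratios scaling, 0.47 with quantile normalization, 0.39 without Ad-shmGULL mouse 2, 0.42 without Ad-shmGULL mouse 3 and 0.47 without Ad-Ctrl mouse 2, so that the call was lost in each. Without Ad-Ctrl mouse 3 the size stayed at 0.51 but the unadjusted P was 0.0539.

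Lbr (ENSMUSG00000004880.11; chr1:181815315-181842401), the lamin B receptor of the inner nuclear membrane, which is also a sterol C14 reductase, had another pattern. It stood at 16.2, 11.05, 12.2 and 12.4 TPM in Ad-Ctrl mice 1 to 4, 16.97, 21.03, 13.96 and 14.1 in Ad-shmGULL and 19.7, 20.1, 18.3 and 17.7 in Ad-shmGULL+hGULL. The 4 rescue mice were all above the 4 controls, and the knockdown mice overlapped both groups. The log2 fold change of rescue minus control was 0.53 (SE 0.14; unadjusted P = 0.00216, adjusted p = 0.0601), 0.35 above the all-gene median. It did not pass 0.5 with median-of-ratios scaling (0.34), with quantile normalization (0.34), without Ad-Ctrl mouse 2 (0.46) or without rescue mouse 2 (0.499664). Its adjusted p was 0.0243 without Ad-Ctrl mouse 1 and 0.0315 without Ad-shmGULL mouse 2, in a range of 0.00608 (array weights) to 0.201 (median-of-ratios scaling) over the 9 alternatives, 3 of them under 0.05, and up to 0.177 with 1 of the 12 mice left out. Tm7sf2, the other sterol C14 reductase, ranged from 36.3 to 67.8 TPM and was below 0 on the log2 scale in that comparison (-0.11, adjusted p = 0.653).

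Sqle, the squalene epoxidase and a slow step of the route, stood at 31.98, 23.8, 24.1 and 27.1 TPM in Ad-Ctrl mice 1 to 4, 15.5, 48.6, 44.99 and 29.4 in Ad-shmGULL and 40.2, 32.9, 28.1 and 27.5 in Ad-shmGULL+hGULL. Its lowest and its highest value were both in knockdown mice, mouse 1 and mouse 2, so that the log2 fold change was 0.25 with a 95% interval of -0.36 to 0.86, and 0.58 without mouse 1, past the study threshold. Cyp51, the lanosterol 14-demethylase, stood at 72.5, 58.9, 66.7 and 67.3 TPM in Ad-Ctrl mice 1 to 4, 60.8, 86.5, 101 and 66.9 in Ad-shmGULL and 78.3, 68.9, 66.6 and 76.8 in Ad-shmGULL+hGULL. Knockdown mice 2 and 3 were the highest and mouse 1 lay within the control range (log2 fold change 0.22, adjusted p = 0.409). Dhcr7, which makes cholesterol from 7-dehydrocholesterol, stood at 44.8, 29.2, 35.7 and 34.05 TPM in Ad-Ctrl mice 1 to 4, 24.5, 52.5, 53.4 and 35.2 in Ad-shmGULL and 41.3, 50.3, 38.4 and 37.8 in Ad-shmGULL+hGULL. Knockdown mouse 1 was the lowest of the 12 (log2 fold change of the group 0.15, adjusted p = 0.753). Its value was 0.37 without mouse 1 (adjusted p = 0.228), 0.0162 without mouse 2 and 0.00819 without mouse 3.

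With all 12 mice, the remaining 6 genes of these steps passed neither threshold in any comparison. Fdft1, squalene synthase, and Sc5d, the C5 desaturase, had knockdown log2 fold changes of 0.43 and 0.40 (adjusted p = 0.1202 and 0.151) and rescue minus control values of 0.47 and 0.40, or 0.30 and 0.23 relative to all genes. For both, each rescue mouse was above each control, and without Ad-shmGULL mouse 1 their knockdown values were 0.58 and 0.54 (adjusted p = 0.0248 and 0.0415). Fdft1 also passed the study threshold in rescue minus control without Ad-Ctrl mouse 1 (0.55). Msmo1, the C4 methyl oxidase, Hsd17b7, the C3 keto reductase, and Ebp, the sterol isomerase, had knockdown values of 0.17, 0.18 and -0.05 (adjusted p = 0.642, 0.631 and 0.843). Without Ad-shmGULL mouse 1 these were 0.36, 0.31 and 0.04496 (adjusted p = 0.147, 0.317 and 0.805), with a change of sign for Ebp, and Msmo1 was at 0.0148 without mouse 3. Tm7sf2 was at -0.031 (adjusted p = 0.936).

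Promoters of 21 of the 28 genes were searched for 3 motifs. RefSeq windows of GRCm38.p6, 250 bases before to 50 after a start, gave 24 windows, some of which overlap (Dhcr7). No window was searched for Fdps, Fdft1, Sqle, Scarb1, Stard4, Npc1 and Soat2, so the motif counts leave these 7 genes out. Whether an entry exists for each of them is not given here. On both strands, CCAAT was found in 20 of 24 windows (20 of 21 genes), or 83.3%, against 37.4% of all 32851 windows. GGGCGG, the GC box, was in 20 of 24 windows (19 of 21 genes), against 35.7%. CACNCCAC, a core of the sterol regulatory element, was in 2 of 24 windows (Acat2 and Hmgcs1), or 8.33%, against 6.24%. The 32851 windows were not limited to genes tested here, whereas all 28 genes were tested. The shares among tested genes are not given, so these contrasts are not like for like. No match of one motif overlapped a match of another. The 5 windows below belong to the genes that rose with knockdown, printed 5′ to 3′ with matches of the 3 motifs, on either strand, in capitals.
Acat2 (chr17:12960676-12960975, minus strand): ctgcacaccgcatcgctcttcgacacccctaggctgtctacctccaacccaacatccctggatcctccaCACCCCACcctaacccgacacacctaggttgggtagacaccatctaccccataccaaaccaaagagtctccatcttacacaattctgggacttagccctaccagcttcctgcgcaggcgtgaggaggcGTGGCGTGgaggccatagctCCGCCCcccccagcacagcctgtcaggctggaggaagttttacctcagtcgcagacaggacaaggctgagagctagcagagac
Hmgcs1 (chr13:119690101-119690400, plus strand): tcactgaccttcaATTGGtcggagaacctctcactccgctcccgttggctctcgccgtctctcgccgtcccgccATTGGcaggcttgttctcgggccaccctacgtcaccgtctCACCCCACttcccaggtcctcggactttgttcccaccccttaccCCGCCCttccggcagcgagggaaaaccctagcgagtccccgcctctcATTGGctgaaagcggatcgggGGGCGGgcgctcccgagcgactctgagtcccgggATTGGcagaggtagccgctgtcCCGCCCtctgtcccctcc
Mvd (chr8:122443373-122443672, minus strand): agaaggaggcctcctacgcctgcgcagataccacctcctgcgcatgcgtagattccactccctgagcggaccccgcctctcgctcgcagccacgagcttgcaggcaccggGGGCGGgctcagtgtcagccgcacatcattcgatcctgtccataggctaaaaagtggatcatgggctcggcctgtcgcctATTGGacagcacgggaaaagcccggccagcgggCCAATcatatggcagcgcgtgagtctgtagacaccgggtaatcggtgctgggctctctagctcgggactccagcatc
Lss (chr10:76531355-76531654, plus strand): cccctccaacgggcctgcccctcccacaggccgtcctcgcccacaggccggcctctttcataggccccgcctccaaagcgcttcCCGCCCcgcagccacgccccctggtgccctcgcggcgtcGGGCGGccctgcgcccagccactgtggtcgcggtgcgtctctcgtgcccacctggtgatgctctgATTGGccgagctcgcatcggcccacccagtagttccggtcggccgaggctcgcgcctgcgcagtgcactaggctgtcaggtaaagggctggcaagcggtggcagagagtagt
Nsdhl (chrX:72918271-72918570, plus strand): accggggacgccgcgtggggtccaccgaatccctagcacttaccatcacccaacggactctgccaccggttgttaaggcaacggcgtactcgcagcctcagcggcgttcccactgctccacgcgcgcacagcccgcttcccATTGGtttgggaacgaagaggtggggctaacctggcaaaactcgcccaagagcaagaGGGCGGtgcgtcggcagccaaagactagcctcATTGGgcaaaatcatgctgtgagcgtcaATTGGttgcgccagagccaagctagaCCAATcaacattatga
Acat2 holds 2 CACNCCAC matches, 1 GC box and 0 CCAAT, and Hmgcs1 1, 3 and 4. Mvd, Lss and Nsdhl hold 2, 1 and 4 CCAAT matches. Idi1, whose levels were not called, holds 2 CCAAT and 1 GC box, and a match is only a description of these letters in this window.

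The 4 knockdown mice did not share 1 pattern. Of the 20 enzymes of synthesis, Ad-shmGULL mouse 1 was the lowest of its group for 15 and the highest for 0, whereas mice 2 and 3 were the highest for 7 and 13. The median over the 20 of log2(TPM + 1) minus the control mean was -0.041, 0.57, 0.62 and 0.11 in Ad-shmGULL mice 1 to 4. It was 0.22, -0.16, -0.063 and -0.0098 in Ad-Ctrl mice, of which mouse 1 was the highest of its group for 14 of 20, and 0.36, 0.29, 0.11 and 0.11 in rescue mice. Knockdown mice 2 and 3 were above every control for 15 and 18 of 20 enzymes, mouse 4 for 6 and mouse 1 for 2. Mouse 1 was below every control for 6. In rescue mice 1 to 4 the numbers above every control were 13, 10, 6 and 7. The same counts and medians over all genes are not given here for single mice, so a shift of all genes is not set apart. Over all genes the median of knockdown minus control was 0.087. It was 0.12, 0.040, 0.0997 and 0.084 without Ad-shmGULL mouse 1, 2, 3 or 4.

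**Figure D3:**
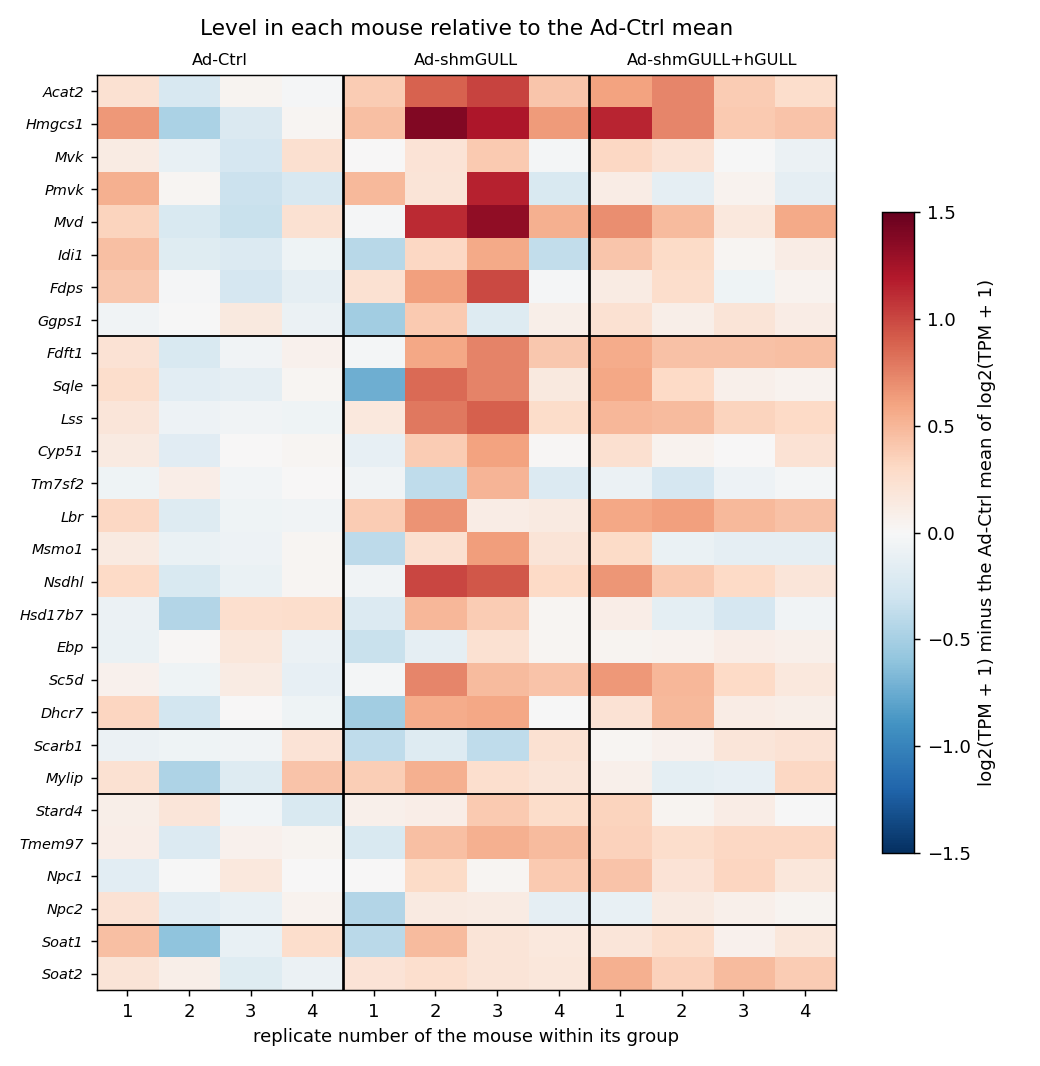
Log2(TPM + 1) minus the mean of the Ad-Ctrl mice for the 28 genes (vertical axis, by role, separated by lines) in the 12 mice (horizontal axis, by group and replicate number). Within Ad-shmGULL, mice 2 and 3 are above the control mean for 18 and 19 of the 20 enzymes, while mouse 1 is below every control for 6 of the 20 enzymes.

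The count of genes called with knockdown moved with these mice. Without Ad-shmGULL mouse 1, 9 of 28 genes were higher at the study threshold, the former 5 with Fdps, Fdft1, Sqle and Sc5d, against 6.2% of all genes, and 6 (Acat2, Mvd, Fdft1, Lss, Sc5d and Tmem97) had an adjusted p under 0.05, against 2.45%. Sqle was then at 0.58 (adjusted p = 0.103) and Tmem97 at 0.48 (adjusted p = 0.0143). Without mouse 2 the count at the study threshold was 3 (Acat2, Hmgcs1 and Mvd), against 3.99% of all genes, and without mouse 3 it was 2 (Acat2 and Hmgcs1), against 6.92%. In both cases 0 had an adjusted p under 0.05, against 1.16% and 6.45% of all genes. Without mouse 4, or without Ad-Ctrl mouse 1, the count was 7, with Pmvk and Fdps added to the former 5, against 5.67% and 7.81% of all genes. An adjusted p under 0.05 was then found for 1 gene (Acat2) and for 2 genes (Acat2 and Hmgcs1), against 1.86% and 5.78%. Without Ad-Ctrl mouse 2 or Ad-Ctrl mouse 3 the count was 4, against 3.92% and 4.86% of all genes. Acat2 had an adjusted p under 0.05 with 3 of the 12 mice left out in turn, Ad-Ctrl mouse 1, Ad-shmGULL mouse 1 and Ad-shmGULL mouse 4. The labels give no reason to leave out a mouse, and the values from all 12 stand as the result.

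**Figure D4:**
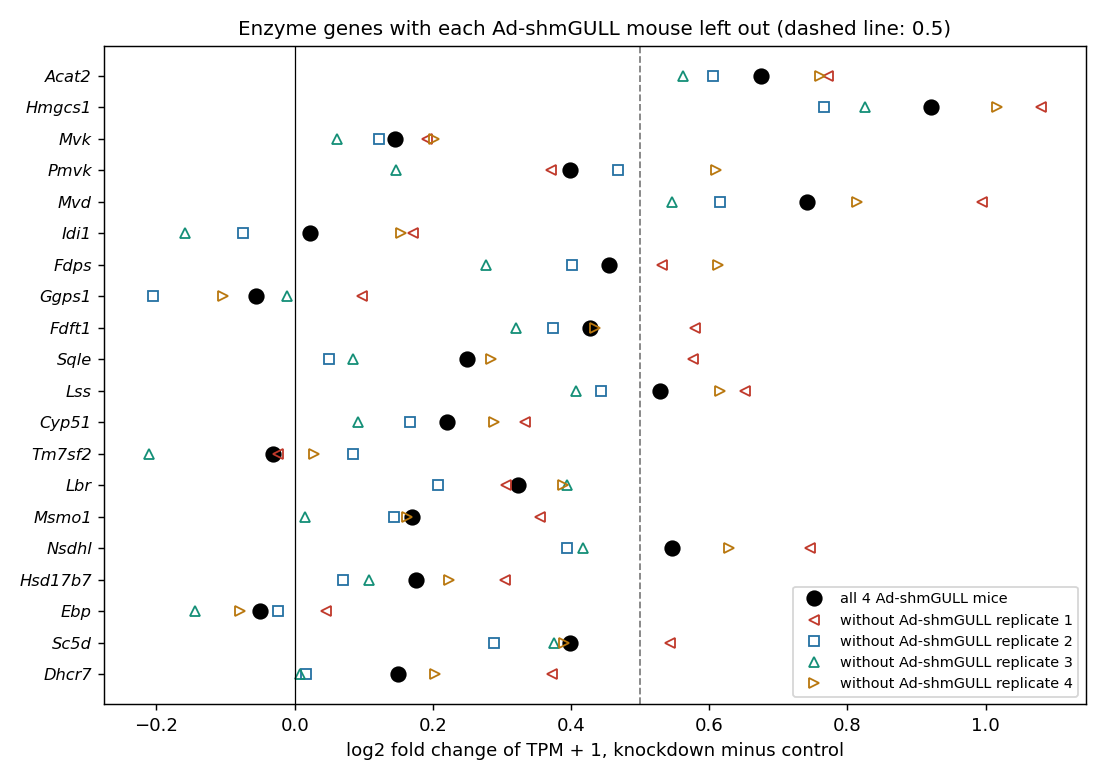
Knockdown minus control log2 fold changes of log2(TPM + 1) for the 20 enzyme genes with all 4 Ad-shmGULL mice (black) and with each of them left out (open symbols). Without mouse 1 the values of Sqle, Fdft1, Fdps and Sc5d pass 0.5 (dashed line), and without mouse 3 only Acat2, Hmgcs1 and Mvd lie beyond it.

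Fatty acid synthesis, the neighboring SREBP route, was set beside them. Its list of 12 holds genes that the study itself picked from lipid metabolism, so its direction is not independent evidence. All 12 were higher at the study threshold with knockdown, against 5.35% of all genes, and 9 had an adjusted p under 0.05, against 3.23%. The median log2 fold change was 1.35, against 0.21 for the 28 cholesterol genes and 0.087 over all genes. Elovl6, a fatty acid elongase, went from 52.4 ± 2.72 to 232 ± 128 TPM (SD, n = 4), Acly, which makes cytosolic acetyl-CoA for both routes, from 129.8 ± 21.3 to 495 ± 252, and Fasn, fatty acid synthase, from 136 ± 31.8 to 531 ± 260.4. Thrsp, Me1 and Acaca had log2 fold changes of 2.06, 1.76 and 1.2997 (adjusted p = 0.00677, 0.00822 and 0.00988). In rescue minus knockdown all 12 were below 0, with a median of -0.51 against 0.093 over all genes. There 5 of the 12 were lower at the study threshold, against 0.672% of all genes, and 0 had an adjusted p under 0.05. In rescue minus control 8 were higher, against 6.84% of all genes, 4 had an adjusted p under 0.05, against 2.15%, and the median was 0.90, against 0.17 over all genes.

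In each of the 4 knockdown mice the median over the 12 fatty acid genes stood higher above the control mean than that over the 20 cholesterol enzymes. The fatty acid medians of Ad-shmGULL mice 1 to 4 were 0.99, 1.99, 1.5971 and 0.95, and the enzyme medians -0.041, 0.57, 0.62 and 0.11. Above every control were 9, 12, 12 and 11 of the 12 and 2, 15, 18 and 6 of the 20. The share of all genes above every control in each mouse is not given here. In the rescue mice the fatty acid medians were 0.9959, 1.34, 0.78 and 0.43. The difference between the lists was not tested.

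**Figure D5:**
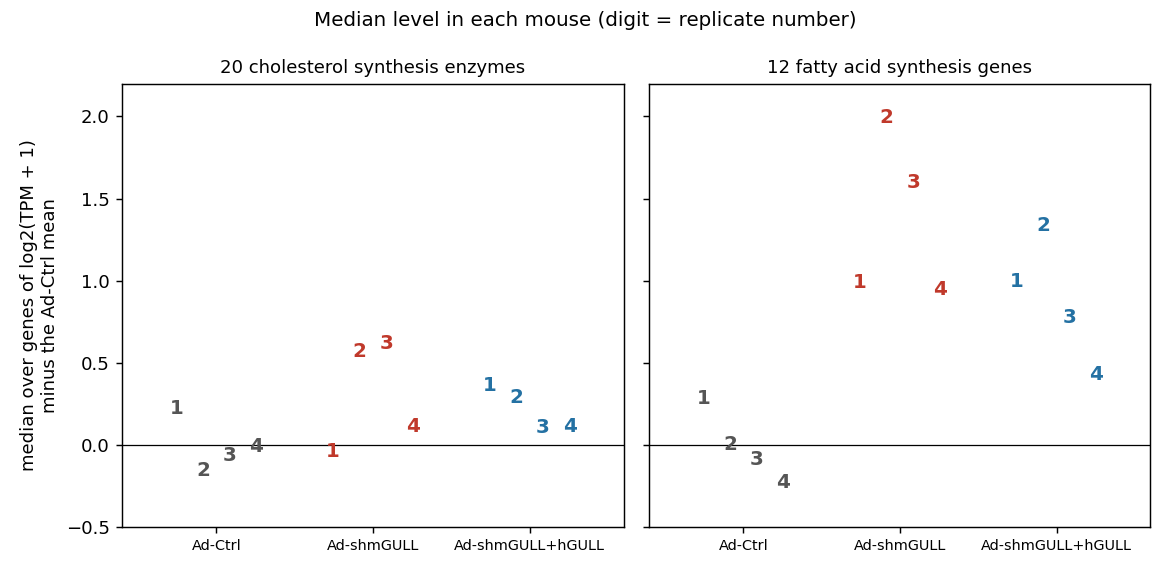
Median over genes of log2(TPM + 1) minus the Ad-Ctrl mean, in each mouse (digits are replicate numbers), for the 20 cholesterol synthesis enzymes and the 12 fatty acid synthesis genes on 1 axis. All 4 Ad-shmGULL and all 4 rescue mice lie above the controls for the fatty acid genes. For the enzymes, Ad-shmGULL mice 2 and 3 and rescue mice 1 and 2 do so.

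Values of the mice that bear on these levels were read beside them. The 20 genes with the highest mean took 34.2, 26.3, 28.9 and 27.5% of all TPM in Ad-shmGULL mice 1 to 4, the highest share of the 12 mice being in mouse 1, against 29.4, 32.9, 29.7 and 30.4% in Ad-Ctrl and 24.6, 26.04, 26.6 and 26.3% in rescue mice. The liver label was checked against 8 hepatocyte markers, which, with Alb the most abundant and 0 of 8 at 0 in all mice, summed to 96584 ± 16352, 89394 ± 6559 and 78683 ± 6078 TPM (SD, n = 4) in the control, knockdown and rescue groups (exact two-sided permutation p = 0.514 for knockdown against control, 0.0571 for rescue against knockdown and 0.0571 for rescue against control). With knockdown, 3 of the 8 were lower at the study threshold and 0 higher, against 2.3% and 5.35% of all genes. Their part in the changes of the cholesterol genes was not tested.

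Markers of other liver cells were present in every group. The 9 Kupffer cell and macrophage markers (most abundant Cd5l) summed to 729 ± 159, 748 ± 128 and 719.5 ± 68.5 TPM, the 5 of sinusoidal endothelium (Stab2) to 119.9 ± 28.9, 157 ± 20.4 and 147 ± 13.4 TPM, and the 5 of stellate cells and fibroblasts (Dcn) to 118 ± 40.3, 142 ± 18.6 and 132 ± 11.2 TPM, in the control, knockdown and rescue groups (SD, n = 4). The 5 cholangiocyte markers (Spp1) summed to 83.5 ± 17.6, 92.4 ± 37.6 and 105 ± 15.1 TPM, the 5 of T and NK cells (Nkg7) to 32.2 ± 17.1, 27.4 ± 10.2 and 36.6 ± 4.94 TPM, the 4 of neutrophils (S100a9) to 164 ± 65.1, 201 ± 75.7 and 109 ± 21.9 TPM and the 3 of B cells (Cd79a) to 2.41 ± 0.461, 3.81 ± 1.46 and 2.62 ± 0.511 TPM. No marker was at 0 in all mice. The exact two-sided permutation p of knockdown against control, 4 mice against 4, was at least 0.114 for these 7 lists. For rescue against knockdown the exact p was 0.0571 for neutrophils and at least 0.2000 for the other 6, and for rescue against control at least 0.143 for the 7. At the study threshold with knockdown, 1 endothelial gene (Stab2) and 1 cholangiocyte gene (Sox9) were higher and 1 macrophage gene (Marco) was lower, against 5.35% and 2.3% of all genes; of these 3, named after their values were seen, Stab2 had an adjusted p under 0.05 (0.0476). In rescue minus knockdown 1 gene of T and NK cells was higher and 2 of neutrophils were lower, against 2.33% and 0.672% of all genes, and in rescue minus control 2 hepatocyte genes and 1 macrophage gene were lower, against 0.641%. Their part in the results was likewise not tested.

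The 2 genes of uptake did not pass either threshold. At the study threshold 5.35% of all genes were higher and 2.3% lower with knockdown, and 2.33% and 0.672% for rescue against knockdown. For rescue against control the shares were 6.84% and 0.641%. Scarb1, the HDL receptor that takes up cholesteryl esters, stood at 60.7, 61.5, 62.1 and 74.1 TPM in Ad-Ctrl mice 1 to 4, 49.1, 56.3, 49.3 and 75.8 in Ad-shmGULL and 65.8, 67.3, 73.1 and 74.9 in Ad-shmGULL+hGULL. Knockdown mice 1, 2 and 3 were below every control, while knockdown mouse 4 was the highest of the 12. The log2 fold change was -0.18 with knockdown (95% interval -0.45 to 0.094) and 0.30 in rescue minus knockdown (unadjusted P = 0.0328, adjusted p = 0.428). With median-of-ratios scaling these were -0.28 (limma, unadjusted P = 0.04604, adjusted p = 0.234) and 0.21 (unadjusted P = 0.1303, adjusted p = 0.6497). Without knockdown mouse 4 they were -0.32 (limma, unadjusted P = 0.00571, adjusted p = 0.106) and 0.44 (unadjusted P = 5.77e-04, adjusted p = 0.256). The exact two-sided permutation p over 4 mice against 4 was 0.257 and 0.143. Mylip, the ligase that marks lipoprotein receptors for degradation, ranged from 7.14 to 15.2 TPM, with log2 fold changes of 0.34 with knockdown and -0.31 in rescue minus knockdown (adjusted p = 0.316 and 0.546).

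Of the 4 transport genes 0 were called in any comparison. Of all genes, 5.35% were higher and 2.3% lower at the study threshold with knockdown. The shares were 2.33% and 0.672% for rescue against knockdown and 6.84% and 0.641% for rescue against control. Npc1 and Npc2 together hand cholesterol out of late endosomes and lysosomes, Npc1 in the membrane and Npc2 in the lumen. Npc1 stood at 56.00, 62.4, 69.9 and 62.5 TPM in Ad-Ctrl mice 1 to 4, 62.97, 76.2, 63.8 and 82.4 in Ad-shmGULL and 84.6, 72.3, 78.1 and 70.5 in Ad-shmGULL+hGULL. Each rescue mouse was above each control, with a log2 fold change of 0.28 (adjusted p = 0.129), or 0.11 relative to all genes. Npc2 stood at 41.2, 31.6, 32.6 and 36.7 TPM in Ad-Ctrl mice 1 to 4, 25.7, 38.7, 38.5 and 32.2 in Ad-shmGULL and 32.5, 38.98, 37.3 and 36.5 in Ad-shmGULL+hGULL. Its groups overlapped in every comparison, with the lowest value in knockdown mouse 1. Tmem97, which binds sterols and Npc1, had values of 0.31 with knockdown and 0.31 in rescue minus control, the latter 0.13 relative to all genes (adjusted p = 0.255 and 0.204), and Stard4, a cytosolic sterol carrier, of 0.21 and 0.12, the latter turning to -0.076 by median-of-ratios scaling (adjusted p = 0.313 and 0.502).

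Soat2 (ENSMUSG00000023045.13; chr15:102150415-102163469), which esterifies cholesterol for storage and secretion, stood at 55.1, 51.1, 42.2 and 45.1 TPM in Ad-Ctrl mice 1 to 4, 55.9, 57.5, 55.3 and 54.4 in Ad-shmGULL and 70.3, 61.4, 67.3 and 63.03 in Ad-shmGULL+hGULL. The 4 rescue mice were above all 8 others, and the knockdown mice lay close together, at or above the upper end of the control range. Means were 48.4 ± 5.78, 55.8 ± 1.29 and 65.5 ± 4.05 TPM (SD, n = 4). The log2 fold change of rescue minus control was 0.43 (SE 0.085; limma, adjusted p = 0.03899; higher in 4 of 4 mice), 0.26 above the all-gene median. It was 0.23 in rescue minus knockdown (unadjusted P = 0.0202, adjusted p = 0.411) and 0.21 with knockdown (adjusted p = 0.195). The exact two-sided permutation p was 0.0286 for rescue against control over 4 mice against 4. Median-of-ratios scaling put rescue minus knockdown at 0.13 (adjusted p = 0.689) and rescue minus control at 0.24 (adjusted p = 0.273), and over the 9 alternatives the adjusted p of rescue minus control lay between 0.003496 (array weights) and 0.273, with 4 of 9 under 0.05. The adjusted p was under 0.05 without Ad-Ctrl mouse 1 (0.0165) or Ad-shmGULL mouse 1, 2 or 3 (up to 0.0356) and above it with any of the other 8 left out (from 0.0532). Soat1, the more widely expressed form, stood at 8.69, 3.66, 5.59 and 7.52 TPM in Ad-Ctrl mice 1 to 4, 4.38, 8.84, 7.101 and 6.94 in Ad-shmGULL and 7.05, 7.54, 6.42 and 6.96 in Ad-shmGULL+hGULL, with overlapping groups in every comparison.

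Of 10 genes of sterol sensing and SREBP processing, 1 was higher at the study threshold with knockdown and 0 were lower, against 5.35% and 2.3% of all genes. It was Insig1, a SREBP target whose protein holds the Scap complex in the endoplasmic reticulum, at 142 ± 6.801 TPM in Ad-Ctrl, 224 ± 47.2 in Ad-shmGULL and 192 ± 20.6 in Ad-shmGULL+hGULL (SD, n = 4), with a log2 fold change of 0.63 (adjusted p = 0.0253; higher in 4 of 4 mice than every control). Srebf2, which encodes SREBP-2, was at 0.16 (adjusted p = 0.272) and Scap at -0.21 (adjusted p = 0.268). Erlin2 and Mbtps1, the site-1 protease, were at 0.19 and 0.12. In rescue minus knockdown and in rescue minus control 0 of the 10 passed either threshold. There 2.33% and 6.84% of all genes were higher and 0.672% and 0.641% lower at the study threshold, and 0% and 2.15% had an adjusted p under 0.05. At an unadjusted P under 0.05 the counts in the 3 comparisons were 1, 1 and 6 of 10, with knockdown first, against 20.2%, 10.7% and 25.3% of all genes.

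Among 12 other sterol carriers and electron donors, 2 were higher and 1 lower with knockdown, against 5.35% and 2.3% of all genes, and all 3 had an adjusted p under 0.05, against 3.23%. Cyb5b, a cytochrome b5, went from 296 ± 29.6 to 466 ± 89.00 TPM (SD, n = 4; log2 fold change 0.64, adjusted p = 0.0256; higher in 4 of 4 mice), and Cyb5r3, the reductase of cytochrome b5, which passes electrons to sterol and fatty acid desaturases, from 279 ± 32.5 to 414 ± 71.9 (0.55, adjusted p = 0.0373; above the control mean in 4 of 4). Osbpl2, an oxysterol-binding protein relative, fell from 21.2 ± 1.27 to 13.9 ± 2.02 TPM and was at 17.96 ± 1.56 with hGULL. Its log2 fold changes were -0.58 with knockdown (adjusted p = 0.0143; lower in 4 of 4 mice) and 0.35 in rescue minus knockdown (adjusted p = 0.3596). Osbp, Gramd1a and Gramd1c were at 0.24, 0.21 and 0.28 with knockdown (adjusted p = 0.103, 0.274 and 0.322). In both rescue comparisons 0 of 12 passed either threshold. At the study threshold 2.33% of all genes were higher and 0.672% lower for rescue against knockdown, and 6.84% and 0.641% for rescue against control. At an unadjusted P under 0.05 there were 4 of 12 with knockdown, 1 for rescue against knockdown and 5 for rescue against control, where all genes had 20.2%, 10.7% and 25.3%.

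The 9 genes of isoprenoid branches (ubiquinone, dolichol and prenylation) had 0 calls in any comparison, with 2, 0 and 4 at an unadjusted P under 0.05 with knockdown, for rescue against knockdown and for rescue against control, where all genes had 20.2%, 10.7% and 25.3%. In the same order, 5.35%, 2.33% and 6.84% of all genes were higher at the study threshold, and 2.3%, 0.672% and 0.641% lower. The smallest P with knockdown belonged to Icmt, the methyltransferase of prenylated proteins (0.29, adjusted p = 0.0817), and Dhdds, of dolichol synthesis (0.18, adjusted p = 0.229). Cholesterol enzymes follow the time of day, so 14 clock genes were read, of which 13 were tested. Of these 1 rose with knockdown, against 5.35% of all genes: Cry1, a repressor of the clock, from 7.07 ± 0.434 to 14.5 ± 2.65 TPM (SD, n = 4; 0.93, adjusted p = 0.00677; higher in 4 of 4 mice), and it was also higher in rescue minus control (0.75, or 0.58 relative to all genes, adjusted p = 0.0345). Cry2 and Tef were at 0.26 and 0.20 with knockdown (adjusted p = 0.172 and 0.196). In rescue minus knockdown 0 of 13 passed either threshold, where 2.33% of all genes were higher and 0.672% lower at the study threshold. There 0 of 13 had an unadjusted P under 0.05 in limma, against 10.7% of all genes. The part of the hour of killing was not tested.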

How the data were processed

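Liver RNA of 12 mice was analysed, 4 a group, grouped by the sample titles. According to the processing notes of the record, the authors trimmed reads with fastp 0.23.2, checked them with FastQC 0.11.8, aligned them with HISAT2 2.2.1.0 to GRCm38.p6, and counted them with featureCounts (Subread 2.0) over the VM24 annotation of GENCODE. TPM are the deposited values, and the libraries were strand-specific. The strand setting of the counting and the step from counts to TPM are not given in the sources used here. Of the 28 genes, 8 overlap another RefSeq gene (Acat2, Mvd, Fdps, Fdft1, Lss, Tm7sf2, Scarb1 and Npc1), so their reads may be shared.

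Values were used as deposited, with no further scaling. In R 4.3.3, limma 3.58.1 fitted log2(TPM + 1) of the 16378 genes with a mean TPM of at least 1, with 1 model of 3 groups, no covariate and a mean-variance trend. P-values were adjusted by Benjamini-Hochberg over all genes tested. Single genes were also compared by exact two-sided permutation of 4 mice against 4 (70 splits, smallest p 0.0286). Promoters were searched in Python 3.11.15, and figures used matplotlib 3.10.9. The fit was also run on simulated data, but the outcome is not given here and no result rests on it.

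The members and lists were chosen with earlier results of these data known. Described mouse by mouse were the members past either threshold in any comparison and Scarb1, Npc1, Npc2, Soat1, Soat2, Hmgcs1, Idi1, Sqle, Cyp51 and Dhcr7. From other lists, at most 6 genes with the smallest P of knockdown minus control were named. Alternatives were median-of-ratios scaling, quantile normalization, array weights, a replicate block, a fit of 2 groups alone, a fit that ignores the trend, a pseudocount of 0.1, a filter at 5 TPM or none, and leaving out each mouse. The depth per mouse is unknown, so precision is given by the spread between mice.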

Additional observations from a re-analysis of the deposited data

Results flagged for a closer look

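Of 84 sets of 4 mice (28 genes in 3 groups), 5 held a mouse far from the other 3, by Dixon's 95% limit for the gap to the nearest value over the range; chance marks about 1 in 20 sets, or 4.2 here. Fdft1 in Ad-shmGULL+hGULL mouse 1 stood at 58.5 TPM against 53.7 to 54.1 in the other 3 mice. Lss in Ad-Ctrl mouse 1 stood at 11.4 TPM against 9.36 to 9.45 in the other 3 mice. Msmo1 in Ad-shmGULL+hGULL mouse 1 stood at 61.3 TPM against 45.3 to 46.4 in the other 3 mice. Scarb1 in Ad-Ctrl mouse 4 stood at 74.1 TPM against 60.7 to 62.1 in the other 3 mice. Tmem97 in Ad-shmGULL mouse 1 stood at 85.7 TPM against 138 to 146 in the other 3 mice. The knockdown log2 fold change of Tmem97 was 0.31 with that mouse and 0.48 without it. The cause of each was not tested.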

How the results depend on the processing

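In knockdown minus control, the 5 genes higher at the study threshold became 3 with median-of-ratios scaling and 3 with quantile normalization, and 2 to 9 with 1 mouse left out. The share of all genes higher went from 5.35% to 3.82% and 3.52%, and was 3.92% to 7.81% with 1 mouse left out. The 1 gene with an adjusted p under 0.05 became 0 with no filter (30810 genes tested; 0.766% of all genes, against 3.23% before), with only the 2 groups compared (0.201%), with no trend (2.1%), with array weights (2.94%) and with a replicate block (2.55%), and 0 to 6 with 1 mouse left out. In rescue minus control, the 2 genes higher became 0 with median-of-ratios scaling and 1 with quantile normalization (0 to 4 with 1 mouse left out). The share of all genes higher went from 6.84% to 2.97% and 2.69% (4.76% to 9.6% with 1 mouse left out). The 1 gene with an adjusted p under 0.05 became 0 with no filter (0.0292% of all genes), either scaling (0.0672%), no trend (0.214%) or a replicate block (0.434%), 2 with a mean TPM of at least 5 (5.19% of all genes, against 2.15% before), 7 with only the 2 groups compared (10.3%) and 9 with array weights (19.4%), and 0 to 3 with 1 mouse left out. The median went from 0.19 to 0.00927 and 0.002397 with the scalings. With 1 mouse left out, 1.01% to 6.45% of all genes had an adjusted p under 0.05 in knockdown minus control. In rescue minus control the share was 0.0183% to 6.52%. In rescue minus knockdown, genes lower at the study threshold numbered 0 to 2 with 1 mouse left out, against 0.519% to 0.843% of all genes. The knockdown median of 0.21 became 0.11 and 0.14 with the scalings and 0.15 to 0.33 with 1 mouse left out, and that of rescue minus knockdown, -0.01801, became -0.11, -0.12 and -0.14 to 0.0498. The SD between mice of the median was 0.23 for knockdown minus control, 0.23 for rescue minus knockdown and 0.11 for rescue minus control. Fewer mice or more genes tested act on the adjusted p by construction, and for the rest the cause was not tested.

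Same-numbered mice share only a number: correlations of their deviations from the group means lay between -0.24 and 0.15, and 4 of 12 mice correlated best with a mouse of their own number. With a replicate block, 0 of the 28 genes had an adjusted p under 0.05 in knockdown minus control and in rescue minus control. The shares of all genes were 2.55% and 0.434%. The counts of the 28 higher at the study threshold were 5 and 2, against 5.37% and 6.85% of all genes.

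Of 15 genes described mouse by mouse, values that were not called changed sign, and the cause was not tested. These were, with median-of-ratios scaling Idi1 -0.07498 in knockdown minus control, Sqle -0.0904, Dhcr7 -0.0199, Soat1 -0.0198 in rescue minus knockdown, Cyp51 -0.0696, Scarb1 -0.0762, Npc2 -0.16, Soat1 -0.00123 in rescue minus control, with quantile normalization Idi1 -0.0499 in knockdown minus control, Sqle -0.10, Dhcr7 -0.0194, Soat1 -0.0351 in rescue minus knockdown, Cyp51 -0.03498, Scarb1 -0.0348, Npc2 -0.14, Soat1 -0.0245 in rescue minus control and, with array weights Sqle -0.0598 in rescue minus knockdown. With 1 mouse left out, Idi1 ranged from -0.16 to 0.17 in knockdown minus control, Soat1 ranged from -0.10 to 0.28 in knockdown minus control, Npc2 ranged from -0.0159 to 0.11 in rescue minus control, Soat1 ranged from -0.03204 to 0.32 in rescue minus control, Npc2 ranged from -0.15 to 0.0403 in knockdown minus control, Sqle ranged from -0.32 to 0.20 in rescue minus knockdown, Dhcr7 ranged from -0.15 to 0.22 in rescue minus knockdown, Npc2 ranged from -0.00366 to 0.19 in rescue minus knockdown, Soat1 ranged from -0.11 to 0.19 in rescue minus knockdown and Cyp51 ranged from -0.20 to 0.0373 in rescue minus knockdown. Over the results and alternatives labelled, 949 were the same, 55 were weaker and 20 were stronger. A further 36 changed sign and 2 were medians that moved by more than that SD. The same meant counts within 1.5-fold, medians within that SD and single genes on the same side of the threshold, also if called in neither. Counts and medians were labelled in every alternative. Single genes were not labelled with the filter at 5 TPM, the fit of 2 groups alone or the fit that ignores the trend. Depth, which is unknown, limits the lowest genes most.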
